A study of Homo sapiens with 4 samples.

Results

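Clustered protocadherins are cell-surface proteins of the cadherin superfamily, encoded by 53 genes that lie in tandem on the long arm of chromosome 5. The group holds 15 alpha genes, 16 beta genes and 22 gamma genes. These 53 of the 19974 protein-coding genes of the annotation were chosen by their family name and by the TCF3 peaks that the same lists show at most of them. Peaks were taken where their midpoint lay between the outer ends of the genes or within 5 kb of them. In all, 67 of 11330 TCF3 peaks and 3 of 4951 ATOH8 peaks on chromosomes 1 to 22 and X met this rule.

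DU145 cells, an established line from a human prostate cancer, were examined by ChIP-seq, the sequencing of DNA recovered with a chromatin-bound protein. TCF3, a broadly expressed basic helix-loop-helix protein of the E protein class, was recovered through a Myc tag. ATOH8, another basic helix-loop-helix factor, was recovered through a Flag tag. Each factor had 1 immunoprecipitation library and 1 input library, 4 libraries in all, from cells fixed with 1% formaldehyde for 10 min. The sources used here do not state how the tagged factors were expressed or at what level. There were no replicates, so no value has a replicate error, and the depth of the libraries is unknown. Because the genes were chosen with these lists in view, every count below is a description and no test was made. The lists were held in part: scores stepped down from 887 to 280 in the TCF3 list and from 996 to 356 in the ATOH8 list beside lines that held no peak, so the absence of a peak from the list says nothing on whether a gene was bound.

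Each alpha and gamma protocadherin begins with its own large variable exon, which encodes the extracellular and transmembrane parts of the protein, and is spliced to constant exons that all genes of its subcluster share. Beta genes encode the whole protein in a large exon and have no constant part. Every variable exon has its own promoter, and neurons choose among these promoters so that each cell shows its own combination of protocadherins. Most of these promoters carry a conserved element with the core word CGCT. CTCF, cohesin and DNA methylation are known to take part in the choice. The C-type genes at the end of the alpha and gamma subclusters are regulated differently from the rest.

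Because the variable exons lie side by side, the first question was how many separate peaks stood behind the count of genes. A TCF3 peak had its midpoint within 5 kb of a gene end at 48 of the 53 genes, while 28.5% of all protein-coding genes had one. An ATOH8 peak did so at 4 of the 53, against 22.7% of all protein-coding genes. These shares include the values that led to the choice of the genes, and nothing is read from them. The TCF3 count rested on 64 distinct peaks, of which 29 lay near 1 gene, 32 near 2 genes and 3 near 3 genes, giving 102 pairs of gene and peak. The other 3 TCF3 peaks of the cluster lay over 5 kb from every end of the 53 genes. The 1 at the pseudogene PCDHGB9P still lay within the span of gamma genes. All 15 alpha genes share their downstream end in the annotation, and so do all 22 gamma genes. No TCF3 peak lay within 5 kb of either shared end, so no peak was counted for a whole subcluster at once.

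The count of genes depended on how near a peak had to be. With midpoints within 1 kb of an end it was 19 for TCF3 (20.3% of all protein-coding genes) and 2 for ATOH8 (17.6%). With any base of a peak within 5 kb it was 49 for TCF3 (29% of all) and 4 for ATOH8 (23.1%). Measured from the start alone, 43 of the 47 genes with a recorded strand had a TCF3 midpoint within 5 kb (24.3% of all genes with a strand) and 3 had an ATOH8 midpoint (20.3%). The strands came from the RefSeq promoter table, which held no start on chromosome 8, so shares of genes with a strand leave that chromosome out. Of the 67 TCF3 peaks, 48 had their midpoint over 1 kb from every gene end, which sets the drop at 1 kb.

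Near the limit of 5 kb, PCDHA6 had its nearest TCF3 midpoint 4409 bp from an end and was counted, while PCDHA9 had its nearest at 5316 bp and was not. For ATOH8, PCDHA3 was counted at 4457 bp and PCDHA1, at 10460 bp, was not.

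**Figure D1:**
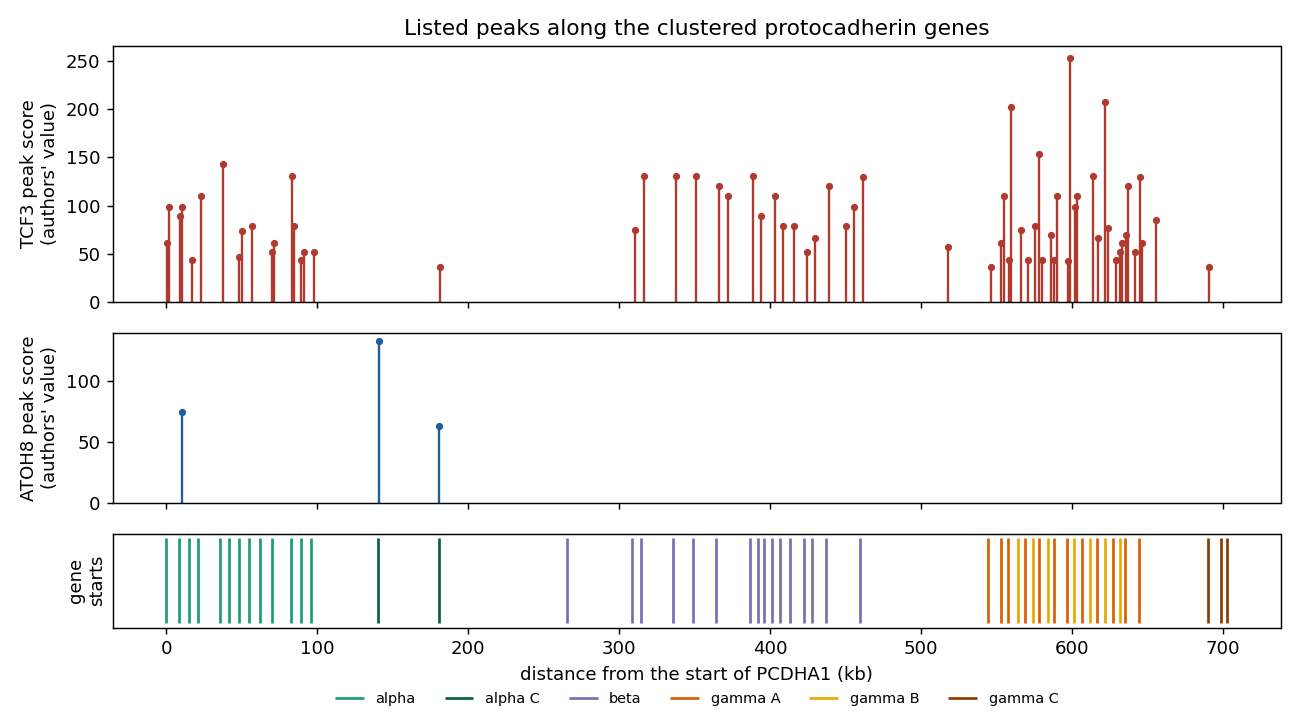
Listed peaks along the cluster. The x axis is the distance from the start of PCDHA1 in kb, vertical lines in the upper panels give the authors' score of each TCF3 and ATOH8 peak, and the lower panel marks the start of each of the 53 genes, coloured by type. The 67 TCF3 peaks follow the gene starts in 3 groups, and the 3 ATOH8 peaks all lie in the alpha subcluster.

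The TCF3 peaks fell into groups that matched the subclusters, with long stretches free of listed peaks between them. The alpha subcluster (chromosome 5, 140786140 to 141012347, hg38) held 18 distinct TCF3 peaks, or 7.96 per 100 kb. The beta subcluster (141051374 to 141249365) held 17, or 8.59 per 100 kb. The gamma subcluster (141330514 to 141512975) was the densest of the 3 by this measure, with 31 peaks or 17.0 per 100 kb. The remaining peak (141303696 to 141304540, score 57) lay between the beta and gamma genes and overlapped the higher-coordinate end of SLC25A2, a mitochondrial carrier gene. The widest stretch without a listed TCF3 peak ran for 129 kb between PCDHAC2 and PCDHB2. It covered the alpha constant region and PCDHB1. Another stretch of 82.3 kb lay before PCDHAC2 and covered PCDHAC1, and the last 35.5 kb of the gamma subcluster, with PCDHGC4 and PCDHGC5, held none.

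Within the genes, the TCF3 peaks took a nearly fixed place. All 47 genes found in the RefSeq promoter table lie on the plus strand, so the lower-coordinate end was taken as the start of each gene. Of the 67 peaks, 43 had their midpoint 1 to 3 kb after the start of a protocadherin gene, and these are called inner peaks. A further 18 had their midpoint within 1 kb after a start and are called start-side peaks. Another 5 were inner peaks of protocadherin pseudogenes, and the last is the peak at SLC25A2. By this narrower assignment 45 of 53 genes had a TCF3 peak of its own, where 18.5% of 15813 protein-coding genes with a known strand had a midpoint 0 to 3 kb after the start. For ATOH8 the count was 3 of 53 genes, where 14.1% of the same genes had one. The background takes any midpoint in that range, so that a peak can count for several genes, and this rule also gave 45 and 3 of the 53. Among the 47 protocadherin genes with a recorded strand, as the background requires, the counts were 40 for TCF3 and 3 for ATOH8. The shares of all genes for the inner and the start-side range apart were not counted. The counts by place below therefore have no background of their own.

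**Figure D2:**
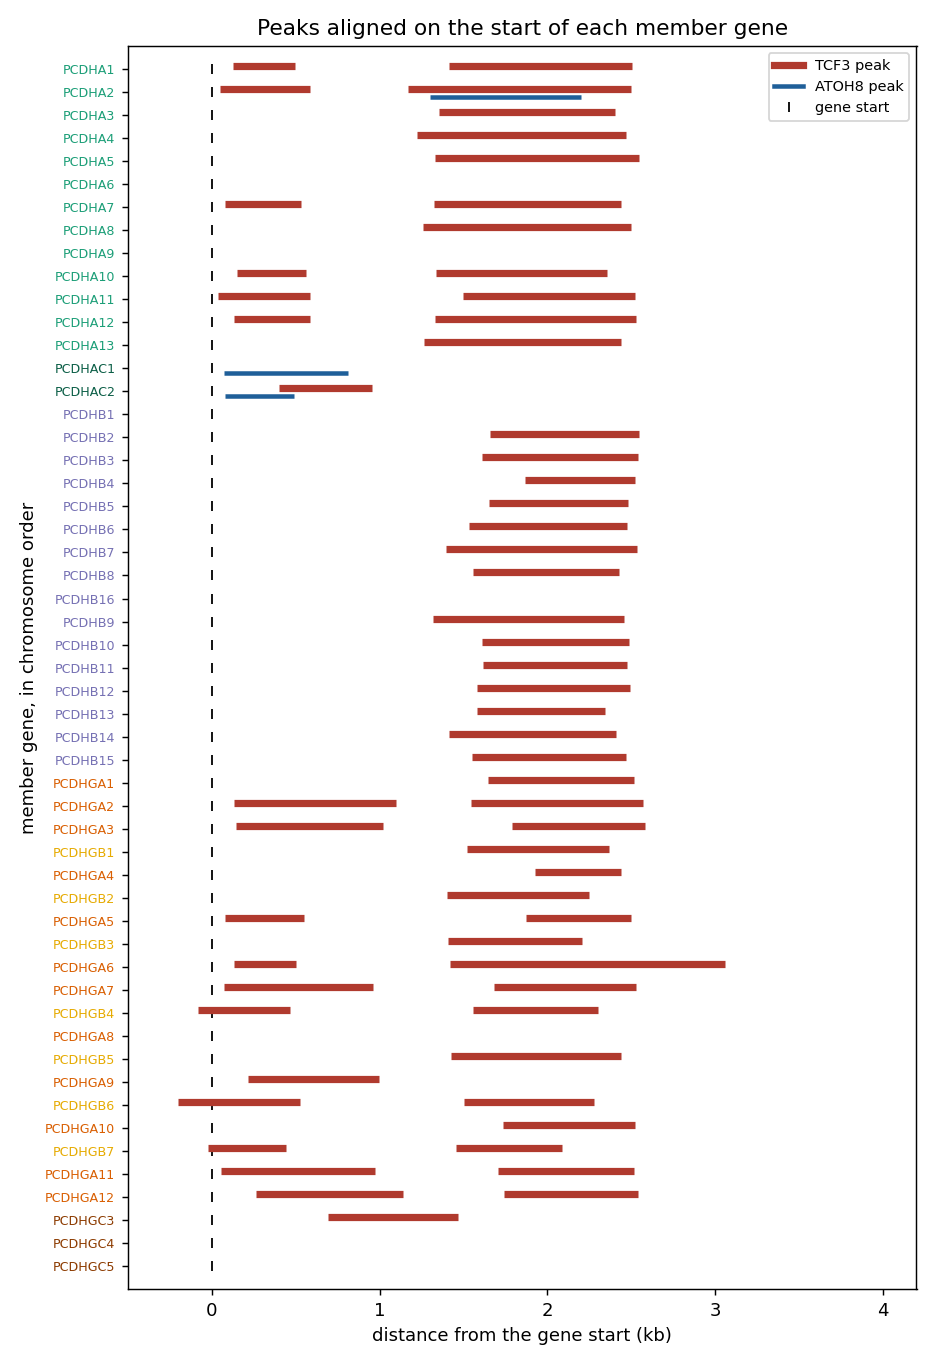
Peaks aligned on the start of each gene. Each row is 1 of the 53 genes in chromosome order, the x axis is the distance from its start in kb, thick red bars are TCF3 peaks, thin blue bars are ATOH8 peaks and black ticks are gene starts. The 43 inner TCF3 peaks form a column whose ends have a median of 2479 bp, and start-side peaks are seen in alpha and gamma rows and in no beta row.

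The inner peaks kept this place although the starts of neighbouring genes lay from 3.37 to 85.1 kb apart. Leaving aside PCDHGC3, whose peak had its midpoint only 1079 bp after the start, the other 42 inner midpoints lay between 1771 and 2238 bp, with a mean of 1992 ± 122 bp (SD over 42 genes). Their far ends lay at a median of 2484 bp after the start, and 37 of the 42 ends fell between 2.3 and 2.6 kb. The SD is a spread over related genes, not over replicates. The genes are copies of each other and the start is an annotated one, so these are not independent measurements. Whether the reads under a peak could be placed uniquely among these related genes was not tested.

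The place of the inner peaks differed slightly by type. Alpha midpoints averaged 1896 ± 56.2 bp after the start (SD, 11 genes), beta midpoints 2022 ± 79.3 bp (14 genes), gamma A midpoints 2141 ± 56.1 bp (10 genes) and gamma B midpoints 1871 ± 69.9 bp (7 genes). Gamma A and gamma B genes alternate along the same subcluster, yet all gamma A midpoints lay at 2056 bp or more and all gamma B midpoints at 1945 bp or less. The ranges of these types therefore did not overlap. The far ends of alpha and beta peaks, by contrast, lay at the same place, with means of 2474 ± 58.8 bp for alpha and 2476 ± 56.1 bp for beta.

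Promoter windows from RefSeq (GRCh38.p14, 250 bases before to 50 after the start) were examined next. They do not show the sequence under most peaks: only 5 of the 67 TCF3 peaks shared a base with a window, the inner peaks lie about 2 kb further on, and the bases under the peaks were not analysed here. The table held 52 windows of 47 of the genes. PCDHA3, PCDHA13, PCDHB6, PCDHB11, PCDHGA12 and PCDHGC5 had no entry. The following stretches of 40 bases are shown because they show how the promoters of each type share the CGCT core. All are on the plus strand and aligned on that core, except PCDHA9. Capitals mark CGCT and the E-box CANNTG, the word that basic helix-loop-helix factors are known to bind, each searched on both strands, so that AGCG is CGCT on the other strand. The alpha genes come first, then beta, then gamma.
PCDHA1 (chr5:140786084-140786123): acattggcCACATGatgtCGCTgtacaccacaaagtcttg
PCDHA2 (chr5:140794779-140794818): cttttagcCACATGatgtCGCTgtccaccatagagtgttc
PCDHA5 (chr5:140821540-140821579): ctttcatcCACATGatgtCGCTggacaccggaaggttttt
PCDHA6 (chr5:140827895-140827934): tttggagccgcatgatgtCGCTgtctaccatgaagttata
PCDHA9 (chr5:140848304-140848343): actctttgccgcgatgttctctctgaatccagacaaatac
PCDHB3 (chr5:141100391-141100430): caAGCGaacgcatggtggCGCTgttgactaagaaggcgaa
PCDHB15 (chr5:141245312-141245351): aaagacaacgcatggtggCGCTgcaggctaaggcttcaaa
PCDHB16 (chr5:141182308-141182347): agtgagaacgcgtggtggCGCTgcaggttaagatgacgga
PCDHGA3 (chr5:141343765-141343804): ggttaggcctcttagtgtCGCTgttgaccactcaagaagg
PCDHGA6 (chr5:141373833-141373872): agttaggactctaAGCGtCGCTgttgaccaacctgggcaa
PCDHGA8 (chr5:141392566-141392605): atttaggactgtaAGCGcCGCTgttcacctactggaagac
PCDHGB7 (chr5:141417605-141417644): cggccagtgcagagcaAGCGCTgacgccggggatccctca

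The core word CGCT was present in 51 of the 52 promoter windows of these genes, against 70.0% of all 35116 windows of the same length. PCDHA9 was the exception, and it had no TCF3 peak of its own. However, PCDHA6, PCDHAC1, PCDHB1, PCDHB16, PCDHGA8 and PCDHGC4 held CGCT and had no TCF3 peak of their own either. An E-box was present in 29 of 52 windows (55.8%), against 68.7% of all windows, and the types differed. It was in 10 of 11 alpha windows (90.9%) and 9 of 14 beta windows (64.3%). In gamma A it was in 6 of 11 windows (54.5%), and in gamma B in 3 of 11 (27.3%). The 11 gamma B windows came from 7 genes, as PCDHGB1, PCDHGB4, PCDHGB5 and PCDHGB6 had 2 overlapping windows each. Those with an E-box were both windows of PCDHGB6 and that of PCDHGB7. Over the 52 windows, CAGCTG was present in 11.5% against 17.9% of all windows, CATCTG or its complement CAGATG in 13.5% against 14.7%, and CACGTG in 5.77% against 7.26%. The CACGTG windows were all alpha, 3 of 11 (27.3%). A CTCF-like word, searched for on both strands, was found in 1 of the 52 windows, that of PCDHB9, against 2.41% of all windows. These are matches of letters within 300 bases and say nothing of whether a factor sits there.

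The promoters resembled each other within a type. In PCDHA1, PCDHA2 and PCDHA5 the E-box CACATG runs into the letters before the core, and the word CATGATGTCGCT occurred in 8 of 11 alpha windows and in no window of another gene among the 35116. The beta word GGTGGCGCTGCA occurred in 10 of 14 beta windows and in 15 windows of the whole table. Both words, and CACATG, were picked after the sequences were seen. The E-box CACATG was found in 7 of 11 alpha windows and in 9 of the 52 (17.3%), against 11.1% of all windows. PCDHA6 and PCDHA9, the alpha genes with no TCF3 peak of their own, lacked it, but so did PCDHA10 and PCDHA11, which had both an inner and a start-side peak. PCDHB16, without a TCF3 peak of its own, held both the beta word and CACATG. The longest run of bases shared by 2 windows at gene starts was 78, between PCDHGB4 and PCDHGB5, followed by 55 between PCDHB8 and PCDHB13 and 38 between PCDHGB6 and PCDHGB7. The median over 1035 pairs was 9.

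Base composition differed by type. The windows had a median GC content of 36.0% in alpha genes, 40.8% in beta and 38.3% in gamma A. Gamma B windows ranged from 43.0% to 65.0%, while alpha C and gamma C genes had medians of 64.5% and 60.7%. The median of all windows was 58.7%. In the window of PCDHAC1 there were 27 CpG pairs, against a median of 7 in the alpha genes.

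Among the alpha genes, an inner TCF3 peak was listed at 11 of 13, and 6 of these 11 also had a start-side peak. PCDHA5 had the highest-scoring one of this type (140822941 to 140824161, score 143, above 90.2% of the TCF3 list). PCDHA4 followed with a score of 110, and PCDHA1 and PCDHA2 with 99 each. PCDHA3 had the lowest, 44. The inner peaks of the alpha genes were the widest of any type, with a median of 1171 bp and a range of 1018 to 1331 bp, against a median of 718 bp over the whole list. The start-side peaks, at PCDHA1, PCDHA2, PCDHA7, PCDHA10, PCDHA11 and PCDHA12, were narrow, with widths of 369 to 548 bp. They had a median score of 56.5, and PCDHA11 stood highest at 131. No alpha gene from PCDHA1 to PCDHA13 had a start-side peak without an inner one.

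The beta genes had inner peaks only. A TCF3 peak lay inside 14 of the 16 genes, at a median of 2024 bp after the start, and none of the 16 had a start-side peak. Scores lay between 52 and 131: PCDHB3, PCDHB4, PCDHB5 and PCDHB7 each had 131, PCDHB15 had 130, and PCDHB6 and PCDHB14 had 120. The lowest was PCDHB12 at 52, and the median over the 14 genes was 115, which compares with a median of 61 over the TCF3 list. The score takes repeated values. A score of 131 was given to 176 of the 11390 peaks of that list and to 6 of the 67 in the cluster. What the equal scores reflect was not tested. PCDHB1, which stands 43.2 kb apart from the next beta gene, had its nearest TCF3 midpoint 37371 bp from an end. PCDHB16 had none of its own, though PCDHB8 and PCDHB9 on either side had peaks with scores 89 and 110.

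The gamma A and gamma B genes, which alternate along the subcluster, had inner peaks at 17 of 19 members. The highest-scoring peaks of the whole cluster were here. PCDHGA7 had an inner peak with a score of 253 (141384422 to 141385271), above 98.8% of the TCF3 list. PCDHGB6 had a start-side peak with a score of 207 (141407822 to 141408548), and PCDHGA3 an inner peak with a score of 202 (141345619 to 141346410). Scores of gamma A inner peaks were also the most spread, from 36 at PCDHGA1 to 253, whereas those of gamma B ran from 61 at PCDHGB7 to 131 at PCDHGB5. PCDHGA8 had no TCF3 peak of its own, and PCDHGA9 had a start-side peak (score 66) and no inner one. The inner peak of PCDHGA6 was the widest of the cluster at 1635 bp.

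Start-side peaks were listed at 8 of 12 gamma A genes and 3 of 7 gamma B genes, and they differed in place. The share of all genes with a midpoint in this range was not counted. Gamma A midpoints lay 315 to 699 bp after the start. Those of gamma B lay 164 to 209 bp after it, and each of these 3 peaks reached across the start. At the annotated gene start, the peak at PCDHGB6 covered 249 of the 300 bases of the promoter window. That at PCDHGB4 covered 133 and that at PCDHGB7 covered 72. PCDHGB6 and PCDHGB4 each had a second window further downstream, and the same peaks covered all 300 bases of it. At PCDHA11 and PCDHA2 the overlap was 12 bp and 1 bp, and no other start-side peak reached the window at the annotated gene start. The PCDHGB6 window at the annotated gene start is shown because it lies under the highest-scoring start-side peak. CGCT and CANNTG are in capitals as above (GRCh38.p14, chr5:141407771-141408070, plus strand).
PCDHGB6: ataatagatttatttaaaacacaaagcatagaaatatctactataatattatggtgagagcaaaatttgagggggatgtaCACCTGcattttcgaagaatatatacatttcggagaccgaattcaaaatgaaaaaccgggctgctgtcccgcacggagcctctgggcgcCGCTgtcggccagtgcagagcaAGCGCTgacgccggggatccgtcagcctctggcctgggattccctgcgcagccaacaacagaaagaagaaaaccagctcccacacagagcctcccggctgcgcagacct

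In the 16 genes with both an inner and a start-side TCF3 peak, the inner peak had the higher score in 12 and the start-side peak in 4. The 4 were PCDHA11 (inner 79, start-side 131), PCDHGA5 (44 and 154), PCDHGB6 (77 and 207) and PCDHGA12 (61 and 130). The opposite was most marked at PCDHGA7 (inner 253, start-side 43) and PCDHGA3 (202 and 44). The inner peak was the wider one in 12 of the 16 genes. Between the pair of peaks lay 446 to 1322 bp without a listed peak, with a median of 786 bp.

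**Figure D3:**
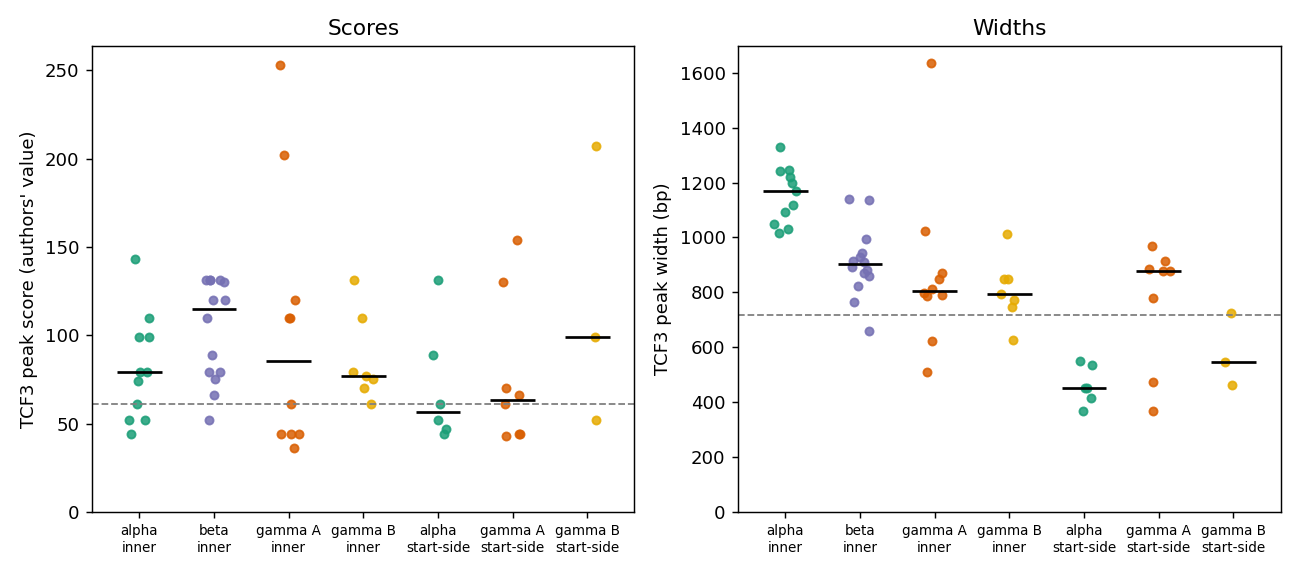
Scores and widths of TCF3 peaks by type and place. Each point is 1 peak of a member gene, black bars are medians, and dashed lines are the medians of the TCF3 list (61 for the score, 718 bp for the width). Beta inner peaks have a median score of 115, and alpha inner peaks (median width 1171 bp) do not overlap in width with alpha start-side peaks (369 to 548 bp).

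The C-type genes had few listed TCF3 peaks. Of the 5, PCDHAC2 and PCDHGC3 had a TCF3 peak, each with a score of 36, which is near the bottom of the list (lowest score 35). The inner peak of PCDHGA1, not a C-type gene, also had a score of 36. Neither C-type peak lay at the usual inner place. The PCDHAC2 midpoint lay 678 bp after its start, within the 315 to 699 bp of the gamma A start-side peaks. The PCDHGC3 midpoint lay 1079 bp after its start, before the other inner midpoints. PCDHAC1, PCDHGC4 and PCDHGC5 had no TCF3 midpoint within 5 kb of an end.

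ATOH8 peaks showed another distribution, with 3 peaks in the cluster and all of them in the alpha subcluster. The highest-scoring of the 3 lay at PCDHAC1 (140926369 to 140927112, score 133, above 80.7% of the ATOH8 list), where no TCF3 peak was listed. It began 70 bp after the gene start, and its midpoint lay 441 bp after it. A second start-side peak lay at PCDHAC2 (140966556 to 140966966, score 63). The third was an inner peak at PCDHA2 (140796151 to 140797050, score 75). No ATOH8 peak was listed at any beta or gamma gene. The PCDHAC1 promoter window is shown because it adjoins the highest-scoring ATOH8 peak (GRCh38.p14, chr5:140926049-140926348, plus strand). It holds several CGCT words in either direction and no E-box.
PCDHAC1: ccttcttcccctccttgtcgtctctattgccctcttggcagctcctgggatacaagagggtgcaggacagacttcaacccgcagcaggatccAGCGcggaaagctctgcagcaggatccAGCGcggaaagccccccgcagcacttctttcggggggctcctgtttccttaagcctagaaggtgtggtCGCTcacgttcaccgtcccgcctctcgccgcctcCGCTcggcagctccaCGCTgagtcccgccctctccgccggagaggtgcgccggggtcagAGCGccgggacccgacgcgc

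Peaks of the factors coincided at 2 of these genes. At PCDHA2 the TCF3 peak (140796021 to 140797352, score 99) and the ATOH8 peak shared 899 bp, with midpoints 86 bp apart. At PCDHAC2 the TCF3 peak (140966879 to 140967430, score 36) and the ATOH8 peak shared only 87 bp, with midpoints 393 bp apart. Thus 2 of the 67 TCF3 peaks and 2 of the 3 ATOH8 peaks shared a base with the other factor. The same shares over the whole lists are not given here, so these counts cannot be called high or low.

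Pseudogenes of the cluster carried peaks as well. Of 6 annotated ones, 5 held an inner TCF3 peak: PCDHB17P (score 110), PCDHB18P (79), PCDHB19P (99), PCDHGB8P (52) and PCDHGB9P (85). PCDHA14 had none. Midpoints lay 1754 to 2123 bp after the annotated start in 4 of them and 1393 bp after it in PCDHB19P. No ATOH8 peak was listed at a pseudogene of the cluster. The shares over all annotated pseudogenes are not given here, so these counts have no background.

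Set beside the rest of the list, the cluster was dense in TCF3 peaks. It held 90.9 TCF3 peaks per Mb, against 4.28 per Mb in the rest of chromosome 5 and 3.72 per Mb over all other places. For ATOH8 the densities were 4.07, 1.41 and 1.64 per Mb, the first of them resting on 3 peaks. Among 2378 bins of 1 Mb with at least 1 TCF3 peak, the bin that starts at 141 Mb of chromosome 5 and holds the beta and gamma genes had 50 peaks, and 2 bins had more, both on chromosome 14. Scores in the cluster had a median of 79, against 61 over the TCF3 list, and 43 of the 67 peaks (64.2%) stood above that median.

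The place of the TCF3 peaks also differed from that of other listed peaks, measured to the nearest start in the promoter table. In the cluster 53.7% of TCF3 peaks lay 1 to 3 kb downstream of the nearest start, against 6.06% of 10649 TCF3 peaks elsewhere. By contrast, 23.9% of the TCF3 peaks in the cluster and 26.3% of those elsewhere lay within 1 kb downstream. Of the ATOH8 peaks elsewhere, 3.58% lay 1 to 3 kb downstream. The limits of 1 and 3 kb were set after the positions in the cluster were seen. Starts of neighbouring member genes lay a median of 6.35 kb apart, which leaves little room for midpoints over 5 kb from a start. Over 5 kb upstream lay 5.97% of the cluster's TCF3 peaks and 23.6% of the others. Over 5 kb downstream lay 8.96% and 26.8%. How much of the contrast comes from gene spacing was not tested. Chromosome 8 was not used in this comparison. Peaks at the 6 genes of the cluster without a start in the table, and at pseudogenes, were measured to a neighbouring start. So were peaks nearer to the next start. The inner midpoint of PCDHGB7 lay 1771 bp after its start, and the PCDHGA11 start lay 3374 bp after it. The class of 1 to 3 kb downstream is therefore not the same set as the inner peaks.

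**Figure D4:**
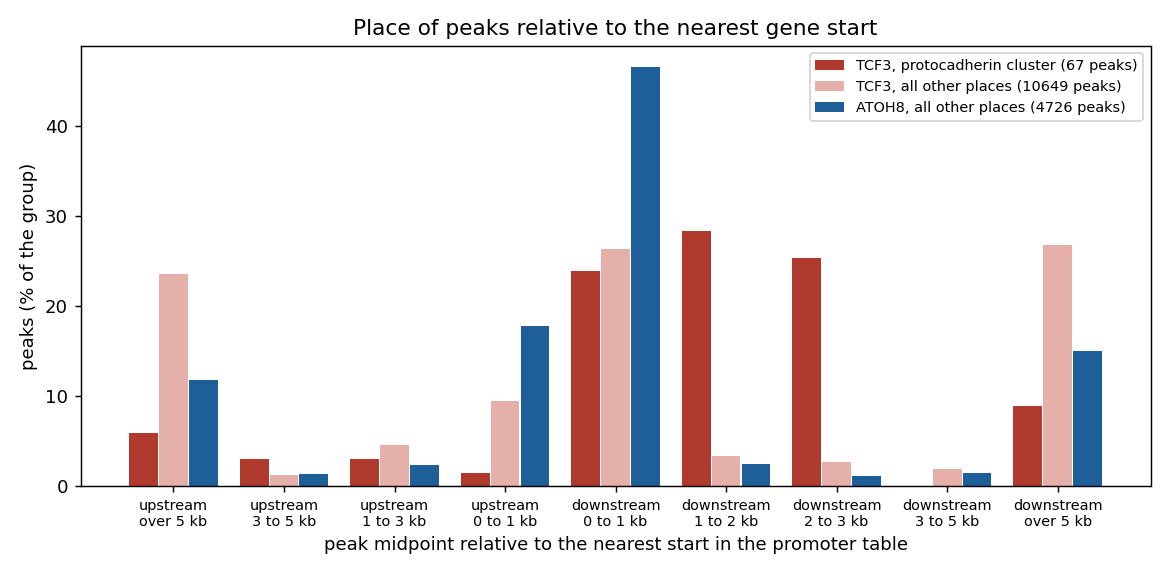
Place of peaks relative to the nearest gene start. The x axis gives classes of distance from the peak midpoint to the nearest start in the promoter table, and bars give the percentage of 67 TCF3 peaks in the cluster, 10649 TCF3 peaks elsewhere and 4726 ATOH8 peaks elsewhere. The classes from 1 to 3 kb downstream hold 53.7% of the cluster's TCF3 peaks and 6.06% of the other TCF3 peaks.

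Related adhesion genes outside the cluster were counted by midpoints within 5 kb of a gene end. Among 12 non-clustered protocadherins, single genes whose proteins also mediate adhesion between cells, 6 had a TCF3 peak and 0 an ATOH8 peak. The highest TCF3 scores were at PCDH7 (264), PCDH20 (131) and PCDH10 and PCDH17 (120 each). Classical and related cadherins carried TCF3 peaks at 10 of 22 genes and ATOH8 peaks at 3. The highest TCF3 scores there were at CDH8 (240), CDH4 (215) and CDH6 (106). CDH1 and CDH3, which encode the epithelial and placental cadherins, shared the same ATOH8 peak (score 143). FAT, Dachsous and CELSR cadherins had TCF3 peaks at 3 of 9 genes, with CELSR1 (110), CELSR3 (79) and FAT2 (44), and ATOH8 peaks at 2 of 9. All protein-coding genes stood at 28.5% for TCF3 and 22.7% for ATOH8.

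Other genes in and beside the cluster were counted within the same 5 kb. Of 32 protein-coding genes within 500 kb of the cluster or inside it, 6 had a TCF3 peak (18.8%, against 28.5% of all protein-coding genes) and 5 an ATOH8 peak (15.6%, against 22.7%). These rested on 3 distinct TCF3 peaks, of which the peak at SLC25A2 is also 1 of the 67 of the cluster, and on 3 distinct ATOH8 peaks. On the alpha side, WDR55, DND1 and HARS1, a histidyl-tRNA synthetase gene, shared a TCF3 peak (score 131). On the gamma side, DIAPH1, a formin gene, and HDAC3, a histone deacetylase gene, shared an ATOH8 peak (score 90). TAF7, which lies between the beta and gamma genes and encodes a TFIID subunit, had no listed peak of either factor within 5 kb.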

How the data were processed

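Peak lists of TCF3 (Myc) and ATOH8 (Flag) ChIP-seq in DU145 cells were analysed, 1 list per factor, matched to its immunoprecipitation by the factor named in the table. A peak has a chromosome, start, end and score. The deposited score comes from the authors and was compared only within its list. The submitters' processing notes name hg38 as the build. The sources used here give no aligner, peak caller, threshold, score definition, use of inputs or coordinate base. Input libraries were not analysed here. Empty lines numbered 5 for TCF3 and 3 for ATOH8.

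Genes and promoter windows came from RefSeq GRCh38.p14. Each peak in the cluster was assigned to the last protocadherin or pseudogene start before its midpoint. Overlap meant at least 1 shared bp. The members and gene lists were chosen with earlier results of these data known, all 53 members may be named, and of other lists the 3 highest-scoring genes per factor. The limits of 1 and 3 kb for inner and start-side peaks were set after the positions were seen. With 1 library per group no test was made. Alternatives were windows of 1 and 50 kb, starts only, any base of a peak, stricter lists and stricter overlap. The counting was tested on simulated data. Python 3.11.15, numpy 2.4.6, pandas 2.3.3 and matplotlib 3.10.9 were used.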

Additional observations from a re-analysis of the deposited data

How the results depend on the processing

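With a TCF3 peak were 48 of 53 genes (28.5% of all protein-coding genes), 53 within 50 kb (52.9%), 49 with any base (29%), 43 with the higher-ranked 50% of peaks (16.7%), 41 with as many peaks as ATOH8 (14.7%), 43 of 47 from the start alone (24.3% of genes with a strand) and 19 of 53 within 1 kb (20.3%). The inner peaks lie about 2 kb after the start, so they stay in the 1 kb window only where the other gene end is near. This was so at PCDHB8, a gene of 2750 bp whose inner midpoint lay 759 bp from that end. The ATOH8 count of 4 genes was 2 within 1 kb (background 17.6%), 15 within 50 kb (43.2%) and 1 with the higher-ranked 50% of peaks (12.3%). Distinct TCF3 peaks in the cluster numbered 67, the same without flanks and with 50 kb flanks, 45 with the higher-ranked 50% of the list and 41 with as many TCF3 peaks as the ATOH8 list holds. Distinct ATOH8 peaks numbered 3, and 1 with the higher-ranked 50%. Of the 2 TCF3 peaks that share a base with an ATOH8 peak, 1 was left with a reciprocal overlap of 50% and 1 with midpoints within 200 bp. The median midpoint of the inner peaks, 1965 bp, was 1965 and 1978 bp with the 2 stricter lists, which held 31 and 30 of 43 inner peaks. The settings for the inner peaks and the count of genes with their own peak were added after seeing the data. No paired analysis was possible because each group has 1 library. Depth is unknown, and with 1 library per factor no setting could leave one out.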

Other observations

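Genes whose products act on the protocadherin cluster or with its proteins were counted too, from lists of well-known regulators and partners. Architectural and silencing regulators, among them cohesin subunits, their loaders and DNA methyltransferases, had a TCF3 peak within 5 kb of an end at 9 of 21 genes (42.9%, against 28.5% of all protein-coding genes) and an ATOH8 peak at 6 of 21 (28.6%, against 22.7%). The highest TCF3 scores were at STAG1, a cohesin subunit gene (89), SMCHD1, a silencing factor gene (79), and EHMT1, WAPL and SMC3 (70 each). For ATOH8 they were at DNMT3B, a DNA methyltransferase gene (175), WAPL, which encodes a cohesin release factor (155), and SMCHD1 (85). Signalling partners of protocadherins had TCF3 peaks at 6 of 14 genes, with the highest scores at PRKCA (110), CYFIP2 (89) and RAC1 (84), and ATOH8 peaks at 7 of 14. Lists this short give only counts, and no test was made.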
